A study of Mus musculus with 6 samples.

Results

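The expression of 10 genes of the semaphorin system was followed in tumor-associated macrophages (TAMs): the ligands Sema4a, Sema4b, Sema4c and Sema4d, the plexins Plxnb2, Plxnc1, Plxnd1 and Plxna1, and the neuropilins Nrp1 and Nrp2. They were chosen by symbol, as guidance genes that macrophages use, out of 55421 genes in the count table. Earlier results of these data were known at that choice. All 10 passed the filter on low counts, as did 14469 genes in all. TAMs of Pdcd1f/fLysMcre mice and of Pdcd1f/f mice were compared by RNA-seq, with 3 libraries for each genotype. The question of the comparison was what removal of PD-1 from myeloid cells changes in the transcripts of TAMs.

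Both groups carried floxed alleles of Pdcd1, the gene of the inhibitory receptor PD-1, and both bore the implanted fibrosarcoma named M17 in the labels. Adult mice were used, and TAMs were collected on day 15. Pdcd1f/fLysMcre mice also carried Cre recombinase under the lysozyme (LysM, Lyz2) promoter, which is active in monocytes, macrophages and neutrophils, whereas Pdcd1f/f mice served as controls without Cre. The labels give the TAMs as CD11b+ F4/80+ cells. The methods of the study describe the sort of TAMs for another strain, as live CD45+ CD11b+ F4/80+ Ly6G- cells, a gate that would leave out endothelial cells and Ly6G+ neutrophils. The sources used here do not state whether 1 library holds the RNA of 1 mouse or of several, so the p-values measure the spread between these libraries, which may be technical.

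Semaphorins are secreted or membrane-bound proteins that steer the movement of cells and axons. They bind plexins, large receptors whose cytoplasmic part acts on small GTPases of the Rap and R-Ras type and thereby loosens integrin adhesion and reshapes the actin skeleton. Most class 3 semaphorins, which are secreted, need a neuropilin beside the plexin, and neuropilins also bind growth factors of the VEGF family. In the immune system, class 4 semaphorins act on lymphocytes, dendritic cells and macrophages, and guide the entry and stay of myeloid cells in tissues, tumors included.

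The libraries held between 41833823 and 51417209 counts. All 11 macrophage markers were detected and summed to between 505547 and 543159 normalized counts in Pdcd1f/f libraries and to between 432654 and 442276 in Pdcd1f/fLysMcre libraries. Pdcd1 itself was counted at 9.27, 13.4 and 16.4 normalized counts in Pdcd1f/f replicates 1 to 3 and at 6.48, 15.2 and 10.8 in Pdcd1f/fLysMcre replicates 1 to 3. These ranges overlapped, so the level of Pdcd1 did not separate the genotypes. Lyz2, the gene that holds the Cre insertion, was at 207974 to 225226 normalized counts without Cre and at 405 to 465 with Cre, which matched the labels of all 6 libraries. Deletion of Pdcd1, Cre itself and this loss of Lyz2 transcripts came together in the Pdcd1f/fLysMcre libraries and cannot be told apart. All 6 libraries held transcripts of Xist and of Y-linked genes, and both separated the genotypes. Xist was at 17318 to 26511 normalized counts in Pdcd1f/f libraries and at 8529.5 to 13137 in Pdcd1f/fLysMcre libraries, and 4 Y-linked genes summed to 1545 to 1914 and to 6267 to 7233. The genotype and this difference in sex-linked transcripts cannot be told apart in these libraries. Xist is made by female cells and Y-linked genes by male cells, so a library may hold RNA of mice of both sexes. The paper states that male and female mice were used in equal numbers. Whether libraries of a genotype share mice is not given, so the p-values cannot be read as a measure of the spread between mice. In Pdcd1f/f replicate 1 and Pdcd1f/fLysMcre replicate 2 a gene's deviation from the mean of its genotype ran against its GC content (Spearman's rho across 14454 genes of -0.577 and -0.488), whereas rho was between 0.117 and 0.509 in the other 4 libraries. The first 2 libraries were set apart by the negative sign of rho. Its size was about as large in Pdcd1f/f replicate 3 (0.509) and Pdcd1f/fLysMcre replicate 3 (0.497). Genes are not independent replicates, so no test was attached to these values. Results below are also given without the 2 libraries of negative rho where that changed them.

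In Pdcd1f/fLysMcre TAMs, 5 of the listed genes rose (Sema4b, Sema4d, Plxnc1, Plxnd1 and Nrp2) and Nrp1 fell. Sema4a, Sema4c, Plxnb2 and Plxna1 did not pass the test. Calls were made with the two-sided quasi-likelihood test of edgeR on the raw counts, at an adjusted p under 0.05 over all 14469 genes. Thus 5 of 10 listed genes were called higher and 1 of 10 lower, while 2.42% of all genes tested were called higher (350 genes) and 3.01% lower (436 genes). The listed genes were chosen with earlier results of these data known, so these shares describe the list and do not test it. The libraries of the genotypes did not overlap for the same 6 genes, 5 of them higher and 1 lower. Such a separation upward was seen for 14.1% of all genes tested and downward for 13.1%. The median log2 fold change of the 10 genes was 0.13, beside a median of -0.00 over all genes tested. With 3 libraries against 3, an exact permutation test cannot give a p below 0.1, which was its value for each of the 6 separated genes.

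**Figure D1:**
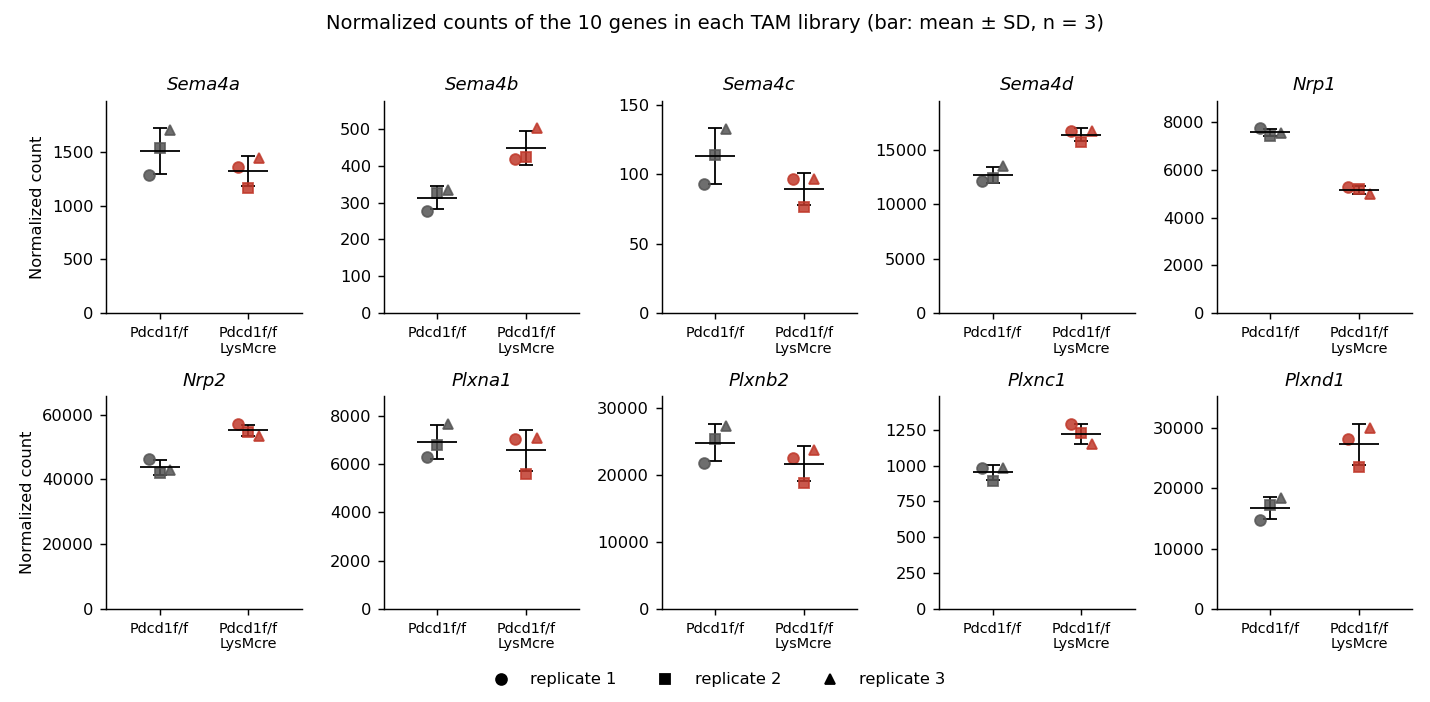
Normalized counts (vertical axes, starting at 0) of the 10 genes in each TAM library, with Pdcd1f/f libraries in gray and Pdcd1f/fLysMcre libraries in red, the mean as a long bar, the SD of 3 libraries as error bars and a symbol for each replicate number. All Pdcd1f/fLysMcre libraries lie above all Pdcd1f/f libraries for Sema4b, Sema4d, Nrp2, Plxnc1 and Plxnd1 and below them for Nrp1, and the genotypes overlap for the other 4 genes.

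Levels between genes were compared per kilobase of exon, as normalized counts divided by the length of all exons of the gene. On this scale Nrp2 had the highest level of the 10 genes, at 3693 ± 188 per kb without Cre and 4658 ± 153 with Cre (SD, n = 3). Plxnd1 and Plxnb2 came next, and their order differed between the genotypes, since Plxnb2 was the higher of the pair in the 3 Pdcd1f/f libraries (3217 ± 358 against 2299.7 ± 249.7 per kb) and Plxnd1 in the 3 Pdcd1f/fLysMcre libraries (3744 ± 461 against 2807 ± 338 per kb). Sema4d followed at 1655 ± 93.2 and 2142 ± 73.1 per kb. Plxna1 (764 ± 77.4 and 727 ± 93.4 per kb) and Nrp1 (773 ± 16.1 and 527 ± 15.1 per kb) were neighbors whose order held in 4 of 6 libraries. Below them were Sema4a at 279 ± 38.9 and 245 ± 26.5 per kb, Plxnc1 at 114 ± 6.48 and 146 ± 8.18 per kb, Sema4b at 55.5 ± 5.43 and 79.4 ± 8.20 per kb, and Sema4c at 24.6 ± 4.33 and 19.5 ± 2.53 per kb. Apart from these 2 pairs, each neighbor in the order was separated in the same direction in 6 of 6 libraries. The order is approximate, because 5 of the 10 genes changed rank when the longest transcript was used as the length. Nrp1 moved from 773 to 2076 per kb in Pdcd1f/f TAMs under that choice, since its longest transcript has 3645 bases and its exons together 9785.

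**Figure D2:**
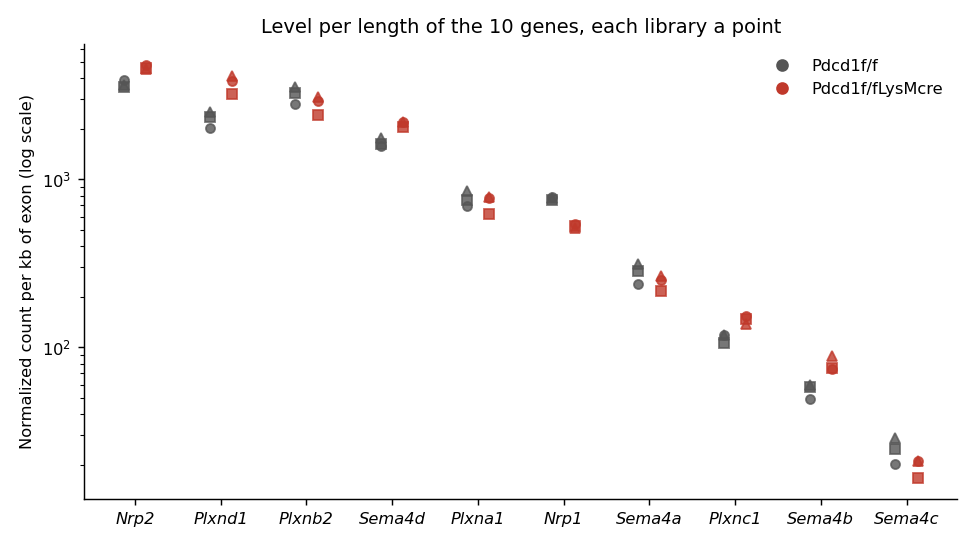
Normalized count per kb of exon (vertical axis, log scale) of the 10 genes ordered from left to right by their level over both genotypes, where each point is a library, Pdcd1f/f in gray and Pdcd1f/fLysMcre in red. The levels run from 4825 per kb for Nrp2 in Pdcd1f/fLysMcre replicate 1 down to 16.6 per kb for Sema4c in Pdcd1f/fLysMcre replicate 2.

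Promoter sequences are shown for Plxnc1, Plxnd1, Nrp1 and Nrp2, the called genes for which the RefSeq table (GRCm38.p6) gives a single start, so that the 3 genes that rose can be set beside the 1 that fell. Each window spans 250 bases before to 50 bases after the start, is written 5′ to 3′ on the strand of the gene, and has capitals where a script found a GC box (GGGCGG) or the core of a site for PU.1 (GAGGAAG), the transcription factor that governs macrophage identity, on either strand. The windows lie at chr10:94944796-94945095 on the minus strand for Plxnc1, at chr6:115994956-115995255 on the minus strand for Plxnd1, at chr8:128358823-128359122 on the plus strand for Nrp1 and at chr1:62703067-62703366 on the plus strand for Nrp2.
Plxnc1: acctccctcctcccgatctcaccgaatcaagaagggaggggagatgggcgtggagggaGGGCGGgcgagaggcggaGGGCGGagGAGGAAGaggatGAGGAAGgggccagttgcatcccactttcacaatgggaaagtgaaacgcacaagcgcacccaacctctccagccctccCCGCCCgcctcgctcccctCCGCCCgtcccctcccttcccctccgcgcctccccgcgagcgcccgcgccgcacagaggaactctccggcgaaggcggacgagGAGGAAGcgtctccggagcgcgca
Plxnd1: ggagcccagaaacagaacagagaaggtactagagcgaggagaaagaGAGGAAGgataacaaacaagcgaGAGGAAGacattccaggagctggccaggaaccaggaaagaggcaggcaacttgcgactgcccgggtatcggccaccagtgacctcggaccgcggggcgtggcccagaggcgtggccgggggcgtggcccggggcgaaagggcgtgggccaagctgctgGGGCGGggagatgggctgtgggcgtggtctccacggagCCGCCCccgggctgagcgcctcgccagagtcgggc
Nrp1: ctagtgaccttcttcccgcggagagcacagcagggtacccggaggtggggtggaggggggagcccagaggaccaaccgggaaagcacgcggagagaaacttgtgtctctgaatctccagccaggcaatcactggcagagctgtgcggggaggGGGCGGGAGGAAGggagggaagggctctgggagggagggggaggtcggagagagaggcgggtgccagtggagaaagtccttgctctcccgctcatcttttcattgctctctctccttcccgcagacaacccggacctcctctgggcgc
Nrp2: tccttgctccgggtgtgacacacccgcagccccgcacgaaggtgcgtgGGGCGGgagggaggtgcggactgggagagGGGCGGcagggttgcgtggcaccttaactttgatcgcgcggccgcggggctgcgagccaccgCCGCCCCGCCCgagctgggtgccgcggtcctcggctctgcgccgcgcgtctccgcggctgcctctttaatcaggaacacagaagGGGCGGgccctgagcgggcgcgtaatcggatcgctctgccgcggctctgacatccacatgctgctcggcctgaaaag
The GC box was found 4 times in the Plxnc1 window, 2 times for Plxnd1, 1 time for Nrp1 and 5 times for Nrp2. The PU.1 core was found 3, 2, 1 and 0 times, and in Nrp1 its match directly follows the GC box. Thus the window of Nrp1, the gene that fell, holds both motifs, as do those of Plxnc1 and Plxnd1, which rose. The 4 windows held 30, 23, 14 and 37 CpG dinucleotides, beside a median of 7 and an upper quartile of 20 over 32851 windows of the same length, so that the Nrp1 window lay below that quartile and the other 3 above it. Of the 10 listed genes, 9 had 1 or more windows in the table, 17 in all, and Plxna1 had none. A GC box lay in 14 of the 17 windows (35.7% of all windows) and a PU.1 core in 6 of the 17 (13.6% of all windows), in 5 genes. An AP-1 site (TGANTCA) lay in 2 of the 17 windows and an E-box (CACGTG) in 1, against 7.81% and 7.15% of all windows. These matches describe the letters of the windows, and no binding was measured.

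Among the class 4 semaphorins, Sema4d and Sema4b rose, and Sema4a and Sema4c did not pass the test. Sema4d (CD100), a membrane-bound ligand that is also shed from the cell surface, binds B-class plexins on endothelium and other tissue cells and CD72 on lymphocytes. It was at 12137, 12485.5 and 13514 normalized counts in Pdcd1f/f replicates 1 to 3 and at 16773, 15797 and 16765 in Pdcd1f/fLysMcre replicates 1 to 3. The lowest library with Cre thus lay above the highest without it. The mean went from 12712 ± 716 to 16445 ± 561 (SD, n = 3), a log2 fold change of 0.37 with a standard error of 0.06 and an adjusted p of 0.00846 in edgeR. The call was lost without Pdcd1f/f replicate 2 (log2 fold change 0.36, adjusted p = 0.078 in edgeR) and without Pdcd1f/fLysMcre replicate 1 (0.36, adjusted p = 0.0697 in edgeR). The gene lies at chr13:51685529-51793747 on the minus strand.

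Sema4b, a transmembrane ligand of the same class that is known from basophils and T cells, was counted at 278, 326 and 335 normalized counts in Pdcd1f/f replicates 1 to 3 and at 418, 425 and 501 in Pdcd1f/fLysMcre replicates 1 to 3. All libraries with Cre were above all libraries without it. The mean was 313 ± 30.6 without Cre and 448 ± 46.3 with Cre, and the log2 fold change was 0.52 with a standard error of 0.12 (adjusted p = 0.0326 in edgeR). This call depended on which libraries were used. It held without both Pdcd1f/f replicate 1 and Pdcd1f/fLysMcre replicate 2 (log2 fold change 0.47, adjusted p = 0.00641 in edgeR) and without Pdcd1f/f replicate 1 alone (adjusted p = 0.0245). It was lost without any 1 of the libraries other than Pdcd1f/f replicate 1, with log2 fold changes between 0.43 and 0.57. The adjusted p from edgeR was 0.128 without Pdcd1f/f replicate 2, 0.0642 without Pdcd1f/f replicate 3, and 0.0923, 0.0689 and 0.093 without Pdcd1f/fLysMcre replicates 1, 2 and 3.

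Sema4a, a ligand that costimulates T cells and binds Plxnd1 and B-class plexins, was at 1283, 1539.6 and 1701 normalized counts in Pdcd1f/f replicates 1 to 3 and at 1361, 1166 and 1444 in Pdcd1f/fLysMcre replicates 1 to 3. Pdcd1f/f replicate 1 lay within the range of the libraries with Cre. The log2 fold change was -0.18 with a 95% interval from -0.44 to 0.07 (adjusted p = 0.349 in edgeR). Without Pdcd1f/f replicate 1 the gene was called lower, with a log2 fold change of -0.30 and an adjusted p of 0.0422 in edgeR, and without both Pdcd1f/f replicate 1 and Pdcd1f/fLysMcre replicate 2 the values were -0.21 and 0.035. With offsets for GC content and length fitted to all 6 libraries, the log2 fold change was -0.06 (adjusted p = 0.533 in edgeR). Sema4c, a ligand of Plxnb2, had the lowest level per kilobase of the 10 genes. It was at 92.7, 114 and 133 normalized counts in Pdcd1f/f replicates 1 to 3 and at 96.2, 76.2 and 96.4 in Pdcd1f/fLysMcre replicates 1 to 3, with overlapping ranges. Its log2 fold change was -0.33 with an interval from -0.75 to 0.09 (adjusted p = 0.311 in edgeR), and it was not called under any of the 15 alternatives.

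Seen per kilobase, Sema4d made up most of the class 4 transcripts listed here. Its share of the summed level of the 4 genes was 83.7%, 81.6% and 81.4% in Pdcd1f/f replicates 1 to 3 and 86.3%, 87.0% and 85.3% in Pdcd1f/fLysMcre replicates 1 to 3. The share of Sema4a was 13.8% ± 1.07 without Cre and 9.83% ± 0.666 with Cre, and the libraries of the genotypes did not overlap although those of its normalized counts did. Sema4b took 2.75% ± 0.144 and 3.19% ± 0.271, and Sema4c 1.22% ± 0.134 and 0.783% ± 0.0706 (SD, n = 3). These shares were chosen for display after the values were seen and were not tested.

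Of the plexins, Plxnd1 and Plxnc1 rose, and Plxnb2 and Plxna1 did not pass the test. Plxnd1, a receptor of endothelial cells and macrophages for Sema3e and Sema4a, had the largest fold change of the 10 genes. Normalized counts of 14783, 17244 and 18343 were found in Pdcd1f/f replicates 1 to 3 and of 28278, 23594 and 30131 in Pdcd1f/fLysMcre replicates 1 to 3. Both libraries that stood apart by GC content, Pdcd1f/f replicate 1 and Pdcd1f/fLysMcre replicate 2, were the lowest of their genotype, and the genotypes remained separated. The mean went from 16789.9 ± 1823 to 27334.5 ± 3369, a log2 fold change of 0.71 with a standard error of 0.10 and an adjusted p of 0.00348 in edgeR. It was called higher under all 15 alternatives run, with each library left out in turn among them, and the log2 fold change then ranged from 0.61 to 0.90. The gene lies at chr6:115954811-115995005 on the minus strand and overlaps no other annotated gene.

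Plxnc1, the receptor of Sema7a, was at 986, 890.5 and 982 normalized counts in Pdcd1f/f replicates 1 to 3 and at 1288, 1224 and 1151 in Pdcd1f/fLysMcre replicates 1 to 3. The ranges did not overlap. The mean was 953 ± 54.1 without Cre and 1221 ± 68.3 with Cre, and the log2 fold change was 0.36 with a standard error of 0.08 (adjusted p = 0.0292 in edgeR). The call held without Pdcd1f/f replicate 1 and without Pdcd1f/fLysMcre replicate 3. It was lost without Pdcd1f/f replicates 2 and 3 (adjusted p = 0.181 and 0.0799 in edgeR) and without Pdcd1f/fLysMcre replicates 1 and 2 (0.151 and 0.0811), each left out alone, where the log2 fold change was between 0.32 and 0.38. Plxnc1 is on chromosome 10, as is Lyz2, at a distance of 22.3 Mb.

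Plxnb2, a receptor of Sema4c and Sema4d and also of angiogenin, had 21855, 25319.7 and 27324 normalized counts in Pdcd1f/f replicates 1 to 3 and 22521, 18741 and 23746 in Pdcd1f/fLysMcre replicates 1 to 3. As for Plxnd1, Pdcd1f/f replicate 1 and Pdcd1f/fLysMcre replicate 2 were the lowest of their genotypes, but here the ranges overlapped. The log2 fold change was -0.19 with an interval from -0.42 to 0.03 (adjusted p = 0.271 in edgeR). Plxnb2 was called lower without Pdcd1f/f replicate 1 (log2 fold change -0.29, adjusted p = 0.0361 in edgeR) and without both of those libraries (-0.19, adjusted p = 0.00856 in edgeR). With offsets for GC content and length fitted to all 6 libraries, its log2 fold change was -0.06 (adjusted p = 0.313 in edgeR). Plxna1, a partner of neuropilins that also joins Trem2 and Tyrobp in a receptor for Sema6d, was at 6290.2, 6799 and 7675 and at 7036, 5609.5 and 7109.7 normalized counts in the same order. The ranges overlapped widely, and the log2 fold change was -0.07 with an interval from -0.30 to 0.16 (adjusted p = 0.711 in edgeR).

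Within a library, the ratio of Plxnd1 to Plxnb2 was more alike between replicates than the level of either gene was. The level of Plxnd1 per kilobase over that of Plxnb2 was 0.715, 0.720 and 0.710 in Pdcd1f/f replicates 1 to 3 and 1.33, 1.33 and 1.34 in Pdcd1f/fLysMcre replicates 1 to 3. The ratio was thus below 1 in each library without Cre and above 1 in each with Cre, while both genes taken alone varied by between 10.9% and 12.3% of their mean (coefficient of variation) within a genotype. Of the summed level of the 4 plexins, Plxnb2 held 50.3% ± 0.295 and then 37.8% ± 0.0417, Plxnd1 35.95% ± 0.337 and then 50.4% ± 0.331, and Plxna1 11.96% ± 0.366 and then 9.79% ± 0.238 (SD, n = 3). The share of Plxnc1 was 1.80% ± 0.245 and 1.99% ± 0.292, with overlapping libraries. The ratio was chosen after the values were seen, so no test was attached to it.

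The neuropilins went in opposite directions. Nrp1, a coreceptor for Sema3a and for VEGF that is found on endothelium, dendritic cells and tumor macrophages, was at 7730.3, 7415 and 7557 normalized counts in Pdcd1f/f replicates 1 to 3 and at 5287, 5180.0 and 4995 in Pdcd1f/fLysMcre replicates 1 to 3. Every library with Cre was below every library without it, and the spread within a genotype was small, with coefficients of variation of 2.08% and 2.87%. The mean fell from 7568 ± 158 to 5154 ± 148, a log2 fold change of -0.55 with a standard error of 0.06 and an adjusted p of 0.000567 in edgeR. Nrp1 was called lower under all 15 alternatives run, with log2 fold changes from -0.66 to -0.54. The gene lies at chr8:128358604-128503363 on the plus strand.

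Nrp2, the coreceptor for Sema3f and for lymphatic growth factors, was at 46229.9, 41983 and 42978 normalized counts in Pdcd1f/f replicates 1 to 3 and at 57138, 54771 and 53579 in Pdcd1f/fLysMcre replicates 1 to 3. The ranges were separated, with replicate 1 the highest in both genotypes. The mean went from 43730.3 ± 2221 to 55163 ± 1812, a log2 fold change of 0.34 with a standard error of 0.06 (adjusted p = 0.0119 in edgeR). Without Pdcd1f/f replicate 2, Pdcd1f/f replicate 3 or Pdcd1f/fLysMcre replicate 1 the log2 fold change was 0.31, 0.32 and 0.31 and the call was lost (adjusted p = 0.102, 0.0522 and 0.0935 in edgeR). The gene lies at chr1:62703285-62818695 on the plus strand, 31.2 Mb from Pdcd1.

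The level of Nrp2 per kilobase over that of Nrp1 was 4.94, 4.68 and 4.70 in Pdcd1f/f replicates 1 to 3. It was 8.93, 8.74 and 8.86 in Pdcd1f/fLysMcre replicates 1 to 3, so that the lowest ratio with Cre was above the highest without it. The means were 4.77 ± 0.146 and 8.84 ± 0.0983 (SD, n = 3). As for the plexins, this ratio was picked after the values were seen and is given as a description. Its size depends on the exon lengths used, and its change between genotypes does not.

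**Figure D3:**
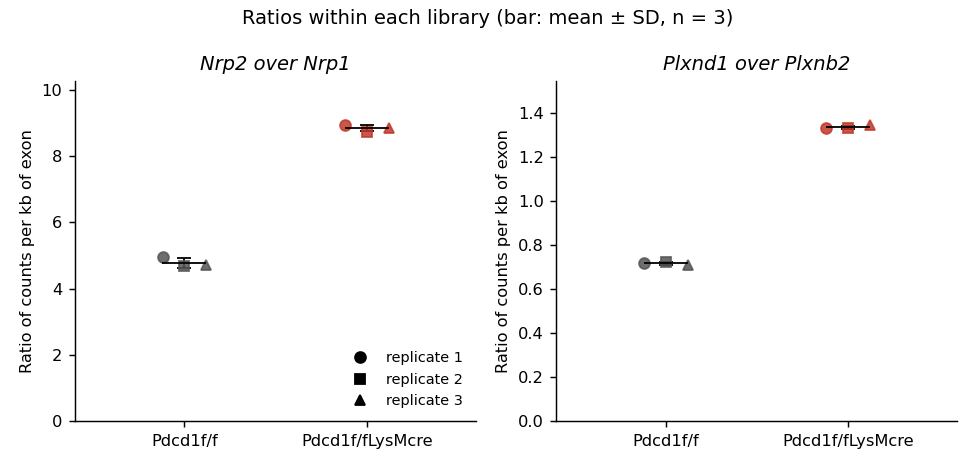
Ratio of normalized counts per kb of exon within each library (vertical axes, starting at 0) for Nrp2 over Nrp1 and for Plxnd1 over Plxnb2, with 1 symbol per library and bars for the mean and the SD of 3 libraries. The ratio of Nrp2 to Nrp1 lies between 4.68 and 4.94 in Pdcd1f/f libraries and between 8.74 and 8.93 in Pdcd1f/fLysMcre libraries, and that of Plxnd1 to Plxnb2 lies below 1 and then above 1.

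The position of Pdcd1f/f replicate 1 followed the base composition of the listed genes. In Pdcd1f/f replicate 1, 7 of the 10 genes had their lowest value of the genotype, and Nrp1, Plxnc1 and Nrp2 had their highest. Those 3 genes had the lowest GC content of the 10, at 41.9%, 49.3% and 51.1% of the bases of the longest transcript, whereas the other 7 had between 53.4% (Sema4d) and 60.8% (Plxnd1). In Pdcd1f/fLysMcre replicate 2, 6 of the 10 genes had their lowest value of the genotype and 0 their highest. In the other direction, 7 genes had their highest value in Pdcd1f/f replicate 3 and 6 in Pdcd1f/fLysMcre replicate 3. Deviations from the mean of a genotype sum to 0 over its libraries, so opposite signs are partly forced. Without both Pdcd1f/f replicate 1 and Pdcd1f/fLysMcre replicate 2, the same 5 genes were called higher, and Nrp1, Sema4a and Plxnb2 were called lower. That fit called 3757 of 14354 genes. Sema4a and Plxnb2 were not called with offsets for GC content and length fitted to all 6 libraries. The number of genes called of all genes rose from 786 to 3181 without Pdcd1f/f replicate 1 alone and was between 222 and 530 without any other single library, so a call lost on leaving out a library came with fewer calls among all genes.

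**Figure D4:**
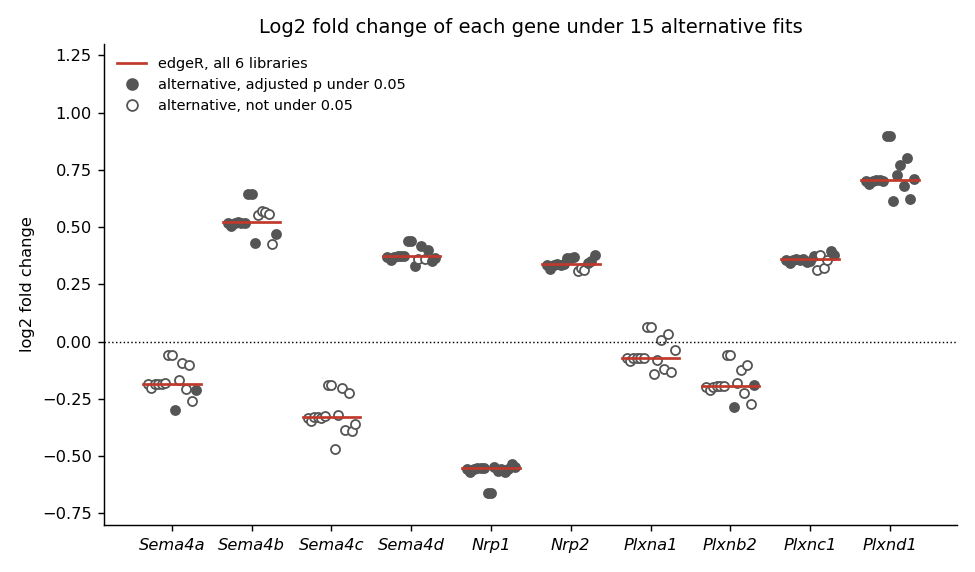
Log2 fold change of Pdcd1f/fLysMcre over Pdcd1f/f (vertical axis) of the 10 genes, with the fit of all 6 libraries as a red line and each of the 15 alternatives as a circle, filled where the adjusted p was under 0.05. Every circle is filled for Nrp1 and Plxnd1, none for Sema4c and Plxna1, and the circles of Plxna1 lie on both sides of 0, from -0.14 to 0.06.

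The other listed genes lie at chr3:88435959-88461182 (Sema4a, minus strand), chr7:80186841-80226527 (Sema4b, plus), chr1:36548639-36558349 (Sema4c, minus), chr15:89155549-89180788 (Plxnb2, minus), chr10:94790866-94944835 (Plxnc1, minus) and chr6:89316314-89362620 (Plxna1, minus), all in GRCm38 coordinates, as are the gene positions above. Transcripts of other genes overlap those of 9 listed genes, Plxnd1 being the exception. The overlapping genes had at most 9 counts in any library, except Gm37121 within Nrp2, which had 24 to 85 counts while Nrp2 had at least 37576. Counts on genes of the opposite strand, such as D430040D24Rik at Sema4c, cannot be told apart from the listed gene if reads were counted without regard to strand. Whether they were is not given in the sources used here.

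Among the 21 other semaphorins and plexins, Sema3d and Plxnb3 fell in Pdcd1f/fLysMcre TAMs. Of these 21, 13 passed the filter on low counts, and 2 of the 13 were called lower and 0 higher in edgeR. Of all genes tested, 3.01% were called lower and 2.42% higher. Of the 13, 4 had an unadjusted p under 0.05, 1 of them with a higher level. An unadjusted p under 0.05 was found for 24.2% of all genes tested. DESeq2 called 1 higher and 3 lower, beside 749 higher and 775 lower among the 26637 genes to which it gave a p-value. Sema3d, a secreted semaphorin that can act through neuropilin 1, was at 113, 53.6 and 92.0 normalized counts in Pdcd1f/f replicates 1 to 3 and at 38.9, 18.1 and 37.4 in Pdcd1f/fLysMcre replicates 1 to 3. The ranges did not overlap, and the log2 fold change was -1.46 with a standard error of 0.34 (adjusted p = 0.0343 in edgeR). Plxnb3, an X-linked plexin that binds Sema5a, was at 107, 107 and 125 normalized counts and then at 60.1, 29.5 and 69.8, with a log2 fold change of -1.08 and a standard error of 0.27 (adjusted p = 0.0446 in edgeR). Each call was kept in 2 of the 6 fits that left out 1 library. Sema3d kept it without Pdcd1f/f replicate 1 or 2 and had adjusted p between 0.0553 and 0.108 in the other 4, and Plxnb3 kept it without Pdcd1f/f replicate 1 or Pdcd1f/fLysMcre replicate 3 and had adjusted p between 0.069 and 0.148 in edgeR. No call among the 13 genes was left without Pdcd1f/f replicate 3, Pdcd1f/fLysMcre replicate 1 or Pdcd1f/fLysMcre replicate 2. The sex-linked transcripts given above moved with the genotype as well, and their part in the value of Plxnb3 was not tested.

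Ligands and receptors known as partners of the listed genes were measured as well. Sema7a, the ligand of Plxnc1, went from 773 ± 52.3 to 955 ± 86.1 normalized counts, with a log2 fold change of 0.31 and an interval from 0.10 to 0.52, and missed the threshold (adjusted p = 0.0843 in edgeR). Sema6b went from 1111 ± 209 to 802 ± 117 (log2 fold change -0.47, adjusted p = 0.0864 in edgeR), and Sema6d, a ligand of Plxna1, from 230.0 ± 23.3 to 268 ± 27.1 (0.22, adjusted p = 0.322). Of the 15 alternatives, 5 put Sema7a past the threshold, 7 did so for Sema6b and 0 for Sema6d. Sema3a, the ligand of Nrp1, had means of 320.4 ± 62.4 and 369.6 ± 26.0 normalized counts, and Sema3f, the ligand of Nrp2, of 24.9 ± 4.93 and 16.3 ± 3.03, and neither was called. Sema3e, the ligand of Plxnd1, had at most 6 counts in any library. Likewise Plxnb1, the high-affinity receptor of Sema4d, had at most 6 counts, whereas Cd72, its receptor on lymphocytes, had means of 10452 ± 582 and 9397 ± 313 normalized counts (log2 fold change -0.15, adjusted p = 0.185 in edgeR).

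Of the remaining family members, Sema3c had means of 59.4 and 68.5 normalized counts, Sema5a of 76.8 and 93.0 and Sema6c of 12.2 and 5.77 in Pdcd1f/f and Pdcd1f/fLysMcre TAMs. Plxna4 had 1553 and 1542, Plxna2 359 and 369, and Plxna3 129 and 116. None of these 6 was called, with log2 fold changes from -1.09 for Sema6c to 0.28 for Sema5a. The 8 genes that did not pass the filter were Sema3b, Sema3e, Sema3g, Sema4f, Sema4g, Sema5b, Sema6a and Plxnb1. Sema4g reached 13 counts in 1 library and the other 7 at most 6, and Sema5b had no count in any library.

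**Figure D5:**
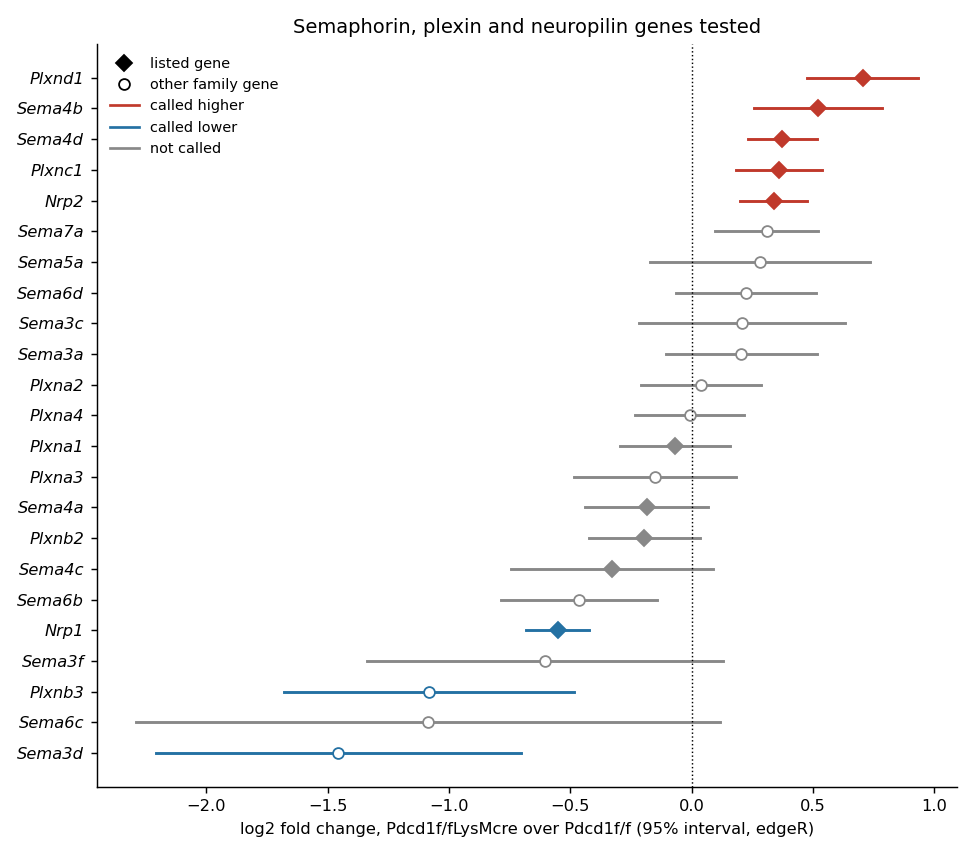
Log2 fold change of Pdcd1f/fLysMcre over Pdcd1f/f (horizontal axis) with its 95% interval from edgeR for the 10 listed genes (diamonds) and the 13 other semaphorins and plexins that passed the filter (circles), in red where called higher, blue where called lower and gray where not called. The 5 genes called higher are listed ones, from 0.34 for Nrp2 to 0.71 for Plxnd1, and the 3 called lower are Nrp1, Plxnb3 and Sema3d.

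Partners and signaling genes of the system were described by a list of 75 genes, of which 66 passed the filter. Of the 66, 4 were called higher (Met, Pgf, Tiam1 and Dpysl3) and 2 lower (Trem2 and Tyrobp), with a median log2 fold change of 0.02, and these shares of 4 and 2 in 66 stood beside the 2.42% and 3.01% of all genes. Met, the receptor of hepatocyte growth factor, which pairs with B-class plexins, was at 2479, 1988 and 2002 normalized counts in Pdcd1f/f replicates 1 to 3 and at 4159, 4021 and 3724 in Pdcd1f/fLysMcre replicates 1 to 3. Its libraries were well separated, and its log2 fold change was 0.88 with a standard error of 0.09 (adjusted p = 0.00055 in edgeR), and Met was called under all 15 alternatives. Trem2 went from 7219 ± 699.6 to 5552 ± 406 normalized counts (log2 fold change -0.38, adjusted p = 0.0302 in edgeR) and Tyrobp, its signaling adaptor, from 24521 ± 2153 to 19491 ± 1292 (-0.33, adjusted p = 0.0405). The share called lower was thus about that of all genes. The call of Trem2 was lost without Pdcd1f/f replicate 2 or 3 (adjusted p = 0.158 and 0.115 in edgeR) and without Pdcd1f/fLysMcre replicate 1 or 2 (0.104 and 0.107). That of Tyrobp was lost without any 1 library other than Pdcd1f/f replicate 1, with adjusted p between 0.0712 and 0.207 in edgeR.

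Pgf, placental growth factor, which binds both neuropilins beside Flt1, was the 1 called gene of 6 growth factor ligands. It went from 2337 ± 183 to 2994 ± 177 normalized counts, with a log2 fold change of 0.36 (adjusted p = 0.0274 in edgeR). Tiam1, an exchange factor that activates Rac, went from 3119 ± 102 to 3962 ± 95.3 (0.35, adjusted p = 0.00961 in edgeR) and Dpysl3, a collapsin response mediator protein, from 246 ± 38.0 to 367 ± 36.7 (0.57, adjusted p = 0.0371 in edgeR). With 1 library left out in turn, the call of Pgf held in 3 of 6 fits, that of Tiam1 in 4 and that of Dpysl3 in 1. Pgf lost it without Pdcd1f/f replicate 2 and Pdcd1f/fLysMcre replicates 1 and 3 (adjusted p = 0.135, 0.13 and 0.0834 in edgeR) and Tiam1 without Pdcd1f/f replicate 2 and Pdcd1f/fLysMcre replicate 1 (0.0772 and 0.0782). Dpysl3 kept it without Pdcd1f/f replicate 1 and lost it in the other 5 fits, with adjusted p between 0.0506 and 0.19 in edgeR. Tiam1 and Dpysl3 were the 2 called genes among 40 plexin signaling genes tested. Of all genes tested, 2.42% were called higher and 3.01% lower. Of the 40, 0 were called lower in edgeR, with 3 called lower in DESeq2. Of 6 tested sheddases and convertases, which cut semaphorins, 0 were called in edgeR and in DESeq2, and 1 had an unadjusted p under 0.05. Counts of calls on the list of 75 genes changed widely with the libraries and settings used, from 1 to 23. Calls among all genes ranged from 222 to 3757 over the same fits.

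Markers of macrophages and of other cells moved with the genotype too. Of 11 macrophage markers, 6 fell (Adgre1, Csf1r, Mertk, Mrc1, C1qa and C1qb), beside 3.01% of all genes called lower. Mertk was at 5950.0 ± 186 and 3890 ± 103 normalized counts. None of the 11 was called higher in edgeR or DESeq2, and 1 was higher at an unadjusted p under 0.05. This was Cd14, with a log2 fold change of 0.15 (adjusted p = 0.163 in edgeR). Nrp1 and Plxnd1 are also genes of endothelium, whose 10 markers summed to between 1904 and 2040 normalized counts without Cre and to between 1552 and 1697 with Cre. Pecam1 fell, from 1082 ± 47.4 to 702 ± 62.4, whereas Cdh5 was at 169 ± 3.56 and 168 ± 11.5 and Kdr at 691 ± 15.8 and 698 ± 27.8, and Robo4 had at most 3 counts in any library.

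Fibroblast and tumor cell markers summed to between 3681 and 4018 normalized counts in Pdcd1f/f libraries and to between 3398 and 3732 in Pdcd1f/fLysMcre libraries. Of 9 tested, 2 fell (Col1a2 and Fap), beside 3.01% of all genes called lower. Neutrophil markers summed to 6583 to 6776 and to 5501 to 5638. Of 6 tested, 2 were called lower (Csf3r and Mmp8), beside 3.01% of all genes, and 3 had positive and 3 negative estimates. Ly6g and Camp had 3 counts or fewer in every library, whereas S100a8 had 994 to 1632 raw counts and S100a9 499 to 680. Dendritic cell markers summed to 393 to 465 and to 472 to 534, with 0 of 7 tested called in edgeR and DESeq2 (2 at an unadjusted p under 0.05) and Xcr1 and Siglech at 3 counts or fewer. T and NK cell markers summed to 83.2 to 99.4 and to 75.9 to 95.2, and B and plasma cell markers to 169 to 210 and to 121 to 164 with Pax5 and Mzb1 at 0. The part of these shifts in the values of the listed genes was not tested. In bulk RNA, fewer cells of a type and less RNA per cell cannot be told apart.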

How the data were processed

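RNA-seq libraries of TAMs, 3 for each genotype, were analysed. Per the submitters' processing notes and the methods of the study, the authors checked reads with FastQC 0.11.5, removed adapters with Cutadapt 2.5, aligned paired-end reads of stranded polyA libraries to GRCm38 with STAR 2.7.3a and assigned them to genes of Ensembl with featureCounts (Subread 1.6.2). They deposited raw counts per gene and a normalized signal, which equals the counts divided by 1 DESeq2 (version 1.24.0) size factor per library. How strand and multi-mapped reads were treated in counting is not given in the sources used here. The normalized counts in the text are these deposited values, and for genes outside the normalized table the counts were divided by the same size factors.

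Raw counts were tested with edgeR 4.0.16 in R 4.3.3 (filterByExpr with a minimum count of 10 and a minimum total of 15, TMM, robust glmQLFit, two-sided glmQLFTest) with Benjamini-Hochberg adjustment over 14469 genes and a threshold of 0.05. Standard errors were computed from each gene's F statistic and log2 fold change, and intervals are 95% intervals. Exact permutation tests used scipy 1.17.1. Totals of 41833823 to 51417209 counts set the precision for genes with few counts, and these limits cover counting error only. Alternatives were RLE size factors, library size alone, 2 other filters, DESeq2 1.42.0, the replicate number as a block, loess offsets on GC content and length (span 0.5) with and without that block, each library left out, and both libraries that stood apart left out. Lengths, GC content and positions came from GENCODE M21 on GRCm38, which paired 178 of 178 listed symbols with 1 gene ID. Promoter windows came from RefSeq (GRCm38.p6).

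The listed genes, the other gene lists and the tests were chosen with earlier results of these data known. Named genes were the 10 listed genes, every other semaphorin and plexin, the called genes of the partner lists with up to 6 per list, and Pdcd1 and Lyz2. Ligands of listed receptors and marker genes described with their values beyond this rule were picked with their values known. The edgeR fit was tested on simulated counts of 3 against 3 libraries, where it recovered 93 of 100 genes changed 1.5-fold and 100 of 100 changed 2-fold among 14442 genes tested, with 18 false calls. The simulated counts had the same dispersion for every gene and no library bias tied to GC content. Only genes above a floor of counts were changed. These figures therefore describe that simpler setting and not the error rates in the real libraries.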

Additional observations from a re-analysis of the deposited data

How the results depend on the processing

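Of the listed genes, 5 were called higher and 1 lower under RLE size factors, library size alone, both other filters, DESeq2, the GC and length offsets with and without the replicate block, and the replicate block itself. With each library left out in turn, between 1 and 5 were called higher and between 1 and 3 lower, and without both libraries that stood apart 3 were called lower. Plxna1 turned from a log2 fold change of -0.07 to 0.0627 under the GC and length offsets and 0.0621 under the offsets with the replicate block, and ranged from -0.143 to 0.0339 with 1 library left out. Calls among the other semaphorins and plexins, 2 in all, were 4 with all genes of at least 1 count, 4 with DESeq2, 4 under the offsets with and without the replicate block, 5 without both libraries and 0 to 4 with 1 library left out. Calls among the 66 partner and signaling genes, 6 in all, were 14 with all genes of at least 1 count, 11 with DESeq2, 22 under the offsets with and without the replicate block, 23 without both libraries and 1 to 20 with 1 library left out. Calls among all genes changed as well, from 786 of 14469 in the main fit. They were 1951 of 26637 with all genes of at least 1 count and 1524 of 26637 with DESeq2. Under the offsets they were 2607 of 14454, and 2717 with the replicate block. Without both libraries they were 3757 of 14354, and with 1 library left out 222 to 3181. The causes were not tested. Deviations of libraries with the same replicate number correlated at -0.0138, -0.0915 and 0.2 across genes, and those with unlike numbers at -0.236 to 0.219. These values cannot decide whether replicate numbers pair the libraries, because deviations sum to 0 within a genotype. The replicate block moved the calls among all genes from 786 to 1027 and changed no call among the listed genes. The longest transcript as length changed 5 ranks of the level per kilobase. Pdcd1, at under 20 normalized counts in each library, could be measured only roughly at this depth.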

Other observations

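Small GTPases of the Rap and R-Ras type, on which plexins act, were measured in the same libraries. Rap1a went from 5401 ± 204 to 6400.5 ± 317 normalized counts (log2 fold change 0.25, adjusted p = 0.0513 in edgeR) and Rap1b from 47124 ± 3205 to 55478 ± 3474 (0.24, adjusted p = 0.0791 in edgeR), each higher in 3 of 3 libraries and short of the threshold. Rras went from 639.7 ± 89.2 to 494 ± 44.7 (log2 fold change -0.37, adjusted p = 0.0982 in edgeR). The libraries of the genotypes did not overlap for Rap1a, Rap1b and Rras. Of all genes tested, 14.1% were separated in this way upward and 13.1% downward. The libraries overlapped for Rras2 (log2 fold change -0.12, adjusted p = 0.744 in edgeR) and Mras (-0.17, adjusted p = 0.44 in edgeR).

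Vegfa, the growth factor ligand of Nrp1, had means of 19431 ± 874 and 19111 ± 673 normalized counts, and the interval of its log2 fold change ran from -0.16 to 0.12. Hgf, the ligand of Met, went from 928 ± 68.6 to 759.8 ± 74.9 (log2 fold change -0.29, adjusted p = 0.111 in edgeR). Adam17, which sheds surface proteins, was at 15978 ± 254 and 16602 ± 1084, with an interval from -0.09 to 0.20.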
